A study of Mus musculus with 40 samples.

Results

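The 9 genes described here, *Pou5f1*, *Sox2*, *Sall4*, *Otx2*, *Pou3f1*, *Fgf5*, *Dnmt3a*, *Dnmt3b* and *Utf1*, were chosen by name as genes of core and formative pluripotency, out of 55536 genes counted. Earlier results of these data were known when the 9 genes were chosen. They were measured by poly(A) RNA-seq in mouse embryonic stem cells (mESCs) grown on gelatin in medium with serum and LIF. There were 2 biological replicates of WT cells, 3 clones lacking *Ccnc* (*Ccnc* KO: D1, G2, H5) and 3 lacking *Cdk8* (*Cdk8* KO: B9, C8, H4), and each was given the solvent DMSO or 900 nM AZD6738, an ATR inhibitor (ATRi), for 4 h. Libraries were sequenced in 2 pools of 10: WT with *Ccnc* KO (the *Ccnc* multiplex), and the same WT libraries a further time with *Cdk8* KO (the *Cdk8* multiplex), so the controls of the comparisons of both knockouts are shared. Every knockout line is a single clone, and both libraries of a clone, DMSO and ATRi, come from the same cell line. WT replicate 2 under ATRi was left out by the study and enters no test below unless named. Library totals lay between 30899823 and 67274049 counts, with a median of 41972557. The targeted transcripts were examined as a check of the labels. *Ccnc* was lower in *Ccnc* KO cells (log2 fold change -2.93, SE 0.13, adjusted p = 1.14e-08) and *Cdk8* was lower in *Cdk8* KO cells (log2 fold change -0.35, SE 0.058, adjusted p = 0.0112), where the *Cdk8* level of WT replicate 2 under ATRi, 57.7 CPM, lay among those of the knockout.

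As background, OCT4 (encoded by *Pou5f1*) and SOX2 bind DNA together and hold up the pluripotent state, and SALL4 works with them. As cells leave the naive state of the early epiblast, OTX2 and OCT6 (encoded by *Pou3f1*) redirect OCT4 to new enhancers, the signalling factor *Fgf5* comes on, and the de novo DNA methyltransferases DNMT3A and DNMT3B place methyl groups across the genome. UTF1 is a chromatin-bound protein of pluripotent cells that restrains genes with bivalent marks. Cyclin C (*Ccnc*) and its partner kinase CDK8 form part of the kinase module of Mediator, a complex that links transcription factors to RNA polymerase II.

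In WT cells the genes spanned a wide range of levels, given here as CPM (read counts scaled by TMM-normalized library size) per kilobase of exon so that genes can be set side by side. Over the 3 WT libraries used in the *Ccnc* multiplex, *Pou5f1* was highest with 623 ± 33.7 (SD, n = 3), followed by *Utf1* with 492 ± 47.3, *Sox2* with 217 ± 6.62, *Sall4* with 39.8 ± 2.97, *Dnmt3b* with 36.3 ± 0.805 and *Dnmt3a* with 15.5 ± 0.751. *Otx2* stood at 3.57 ± 0.346, *Pou3f1* at 2.64 ± 0.289 and *Fgf5* at 0.0265 ± 0.0133 CPM per kb. The core factors and *Utf1* were thus abundant, the transcription factors of the formative state low, and *Fgf5* close to the limit of counting, with 2 to 5 counts per WT library. The order was the same in the *Cdk8* multiplex, and the ranges of neighbouring genes in it overlapped only for *Sall4* and *Dnmt3b* in the *Ccnc* multiplex. This order depends on the length used, all annotated exons merged: 16642 bases for *Dnmt3a*, 5106 for *Dnmt3b* and 5536 for *Sall4*. In CPM without scaling to length, *Dnmt3a* (258) stood above *Sall4* (221) and *Dnmt3b* (186) in the same WT libraries of the *Ccnc* multiplex. The labelled cell type was checked on 10 embryonic stem cell markers (*Nanog*, *Zfp42*, *Esrrb* and others), none of which was at 0 in any library and all of which reached 1 CPM in WT cells.

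**Figure D1:**
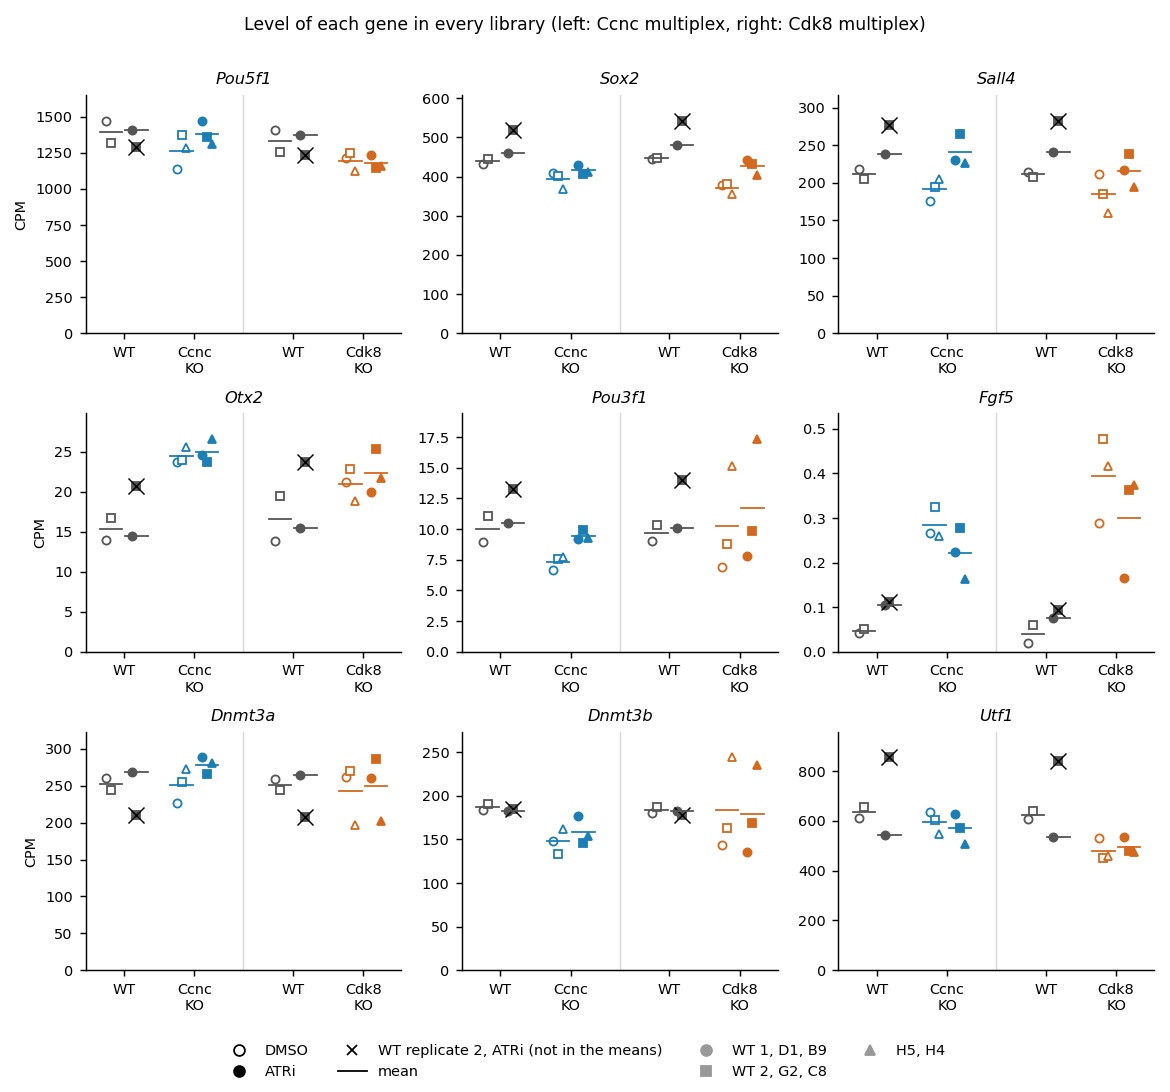
CPM of each gene (y axis, from 0) in all 20 libraries, with the *Ccnc* multiplex on the left and the *Cdk8* multiplex on the right of each panel; open symbols are DMSO, filled symbols ATRi, symbol shapes tell clones or WT replicates apart, lines are means, and the crossed symbol is WT replicate 2 under ATRi. *Otx2* in *Ccnc* KO cells (23.7 to 26.6 CPM) lies above all 4 WT libraries, and clone H4 stands apart from B9 and C8 for *Pou3f1* and *Dnmt3b*.

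The first question was whether loss of cyclin C or CDK8 alters these genes irrespective of treatment. Each knockout was tested against WT within its multiplex with edgeR's quasi-likelihood test, with treatment in the model, and calls were made below 0.05 after Benjamini-Hochberg adjustment of the p-values over all genes tested. The filter on low counts let all 9 genes through in both multiplexes, but *Fgf5* only by way of the knockouts: 0 of 3 WT libraries reached the filter's level, against 4 of 6 *Ccnc* KO and 5 of 6 *Cdk8* KO libraries, so *Fgf5* could enter the test only where it was high in the knockout. The other 8 genes reached it in every library. In *Ccnc* KO cells 2 of 9 genes rose (*Otx2* and *Fgf5*) and 1 fell (*Dnmt3b*), where 7.01% of the 18577 genes tested were called higher and 5.28% lower. In *Cdk8* KO cells 1 of 9 rose (*Fgf5*) and 1 fell (*Sox2*), where 2.28% of 18721 genes were called higher and 2.03% lower. With a fold change above 2 in addition, only *Fgf5* of the 9 passed, in *Ccnc* KO as in *Cdk8* KO cells, against 1.62% of all genes in the former and 0.908% in the latter, and its entry through the knockout libraries leaves that count without weight. The median log2 fold change of the 9 genes was -0.08 upon loss of *Ccnc* and -0.07 upon loss of *Cdk8*, beside 0.00325 and 0.00858 over all genes tested. With the libraries of a clone linked as a replicate block, all 3 calls held in *Ccnc* KO cells, and neither of the 2 held in *Cdk8* KO cells, where 10.1% and 1.27% of all genes were called by that fit. *Fgf5* is among the calls of both knockouts, and its place in all of these counts carries no weight, for the same reason.

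**Figure D2:**
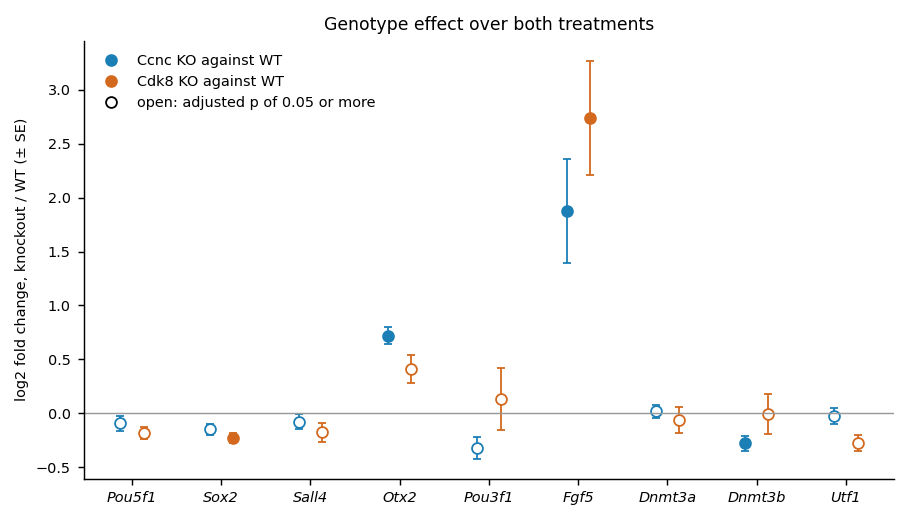
Log2 fold change of each gene against WT (y axis, points with SE), *Ccnc* KO in blue and *Cdk8* KO in orange, with filled points for an adjusted p-value under 0.05. *Fgf5* lies highest in both knockouts, at 1.87 and 2.74, and *Otx2* follows with 0.72 and 0.41, while the other 7 genes lie between -0.32 and 0.13.

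The core factors differed little from WT. *Sox2* was at 433 and 446 CPM in WT replicates 1 and 2 under DMSO and at 460 CPM in replicate 1 under ATRi in the *Ccnc* multiplex. In *Ccnc* KO clones D1, G2 and H5 it was at 409, 401 and 369 CPM under DMSO and at 430, 407 and 412 CPM under ATRi. All 6 knockout libraries were below every WT library, but the difference missed the threshold (log2 fold change -0.15, SE 0.051, adjusted p = 0.0679). *Sox2* in the *Cdk8* multiplex was at 445, 447 and 480 CPM in the WT libraries in the same order, at 379, 381 and 356 CPM in clones B9, C8 and H4 under DMSO and at 442, 431 and 404 CPM under ATRi. Here too every knockout library was below every WT library, and *Sox2* fell by 0.23 on the log2 scale (SE 0.045, adjusted p = 0.0230). The blocked fit gave an adjusted p-value of 0.0604 for it, and without WT replicate 1, WT replicate 2 or clone C8 the values were 0.409, 0.0850 and 0.0868.

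*Sox2* is a gene of 1 exon on chromosome 3 (34650405 to 34652461, plus strand, GRCm38), inside the span of the transcript *Sox2ot* without shared exons. As *Sox2* was the core factor that was called, its promoter is shown, from 250 bases before to 50 after the RefSeq start site (GRCm38.p6, plus strand, chr3:34649745-34650044; the RefSeq start lies upstream of the start of the counted gene model). Windows of 300 bases were given for 7 of the 9 genes, 13 windows in all. *Sall4* and *Pou3f1* had none. They were searched on both strands for ATGCAAAT (the octamer bound by POU factors), CATTGT (bound by SOX factors), TATAAA (the TATA box), GGGCGG (the GC box, bound by SP factors) and CCAAT (bound by NF-Y), with overlapping matches counted separately. Of all 32851 promoter windows, 1.74%, 12.6%, 13.6%, 35.7% and 37.4% held these motifs, respectively. None of the 13 windows held ATGCAAAT, and CATTGT was found in the second *Pou5f1* window alone. Capitals mark the matches, here GGGCGG at positions -223 and -111 and CCAAT at -46, counted with the start site as 0.
Sox2 promoter: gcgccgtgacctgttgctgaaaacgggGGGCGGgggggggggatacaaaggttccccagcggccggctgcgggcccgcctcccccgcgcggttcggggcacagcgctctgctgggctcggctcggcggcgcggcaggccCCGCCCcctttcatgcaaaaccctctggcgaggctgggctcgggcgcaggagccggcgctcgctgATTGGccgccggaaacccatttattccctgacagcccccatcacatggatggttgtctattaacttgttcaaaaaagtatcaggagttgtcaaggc

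*Pou5f1* (chromosome 17, 35506018 to 35510772, plus strand) lay between 1321 and 1472 CPM in the 3 WT libraries of the *Ccnc* multiplex and between 1139 and 1474 CPM in *Ccnc* KO cells, and the groups overlapped (log2 fold change -0.09, SE 0.067, adjusted p = 0.400). In the *Cdk8* multiplex the WT range was 1260 to 1410 CPM and the *Cdk8* KO range 1127 to 1248 CPM, which did not overlap (log2 fold change -0.18, SE 0.054, adjusted p = 0.0888). WT replicate 2 under ATRi, at 1237 CPM, lay within the knockout range. *Sall4* (chromosome 2, 168748332 to 168767943, minus strand) overlapped between groups in both multiplexes, with 205 to 238 CPM in WT and 176 to 265 CPM in *Ccnc* KO cells, and 208 to 241 CPM in WT and 160 to 238 CPM in *Cdk8* KO cells. Its log2 fold changes were -0.08 (SE 0.068, adjusted p = 0.4998) and -0.18 (SE 0.086, adjusted p = 0.273). *Utf1* (chromosome 7, 139943789 to 139945112, plus strand) was at 542 to 658 CPM in WT and 508 to 636 CPM in *Ccnc* KO cells (log2 fold change -0.03, SE 0.070, adjusted p = 0.856). In *Cdk8* KO cells it was at 452 to 535 CPM against 535 to 638 CPM in WT (log2 fold change -0.28, SE 0.075, adjusted p = 0.0677), and the ranges met at their ends. With DESeq2, *Pou5f1*, *Otx2* and *Utf1* were called in *Cdk8* KO cells (adjusted p = 0.0291, 0.0259 and 0.0159), as were *Sox2* and *Pou3f1* in *Ccnc* KO cells (0.0352 and 0.0267), with 9.61% of all genes called by DESeq2 in the former and 14.2% in the latter. Counted over the 9 genes, all knockout libraries lay above all WT libraries for 2 genes (*Otx2*, *Fgf5*) and below them for 2 (*Sox2*, *Dnmt3b*) in *Ccnc* KO cells, where 7.53% and 6.92% of all genes did so. In *Cdk8* KO cells it was 1 gene above (*Fgf5*) and 2 below (*Pou5f1*, *Sox2*), against 6.59% and 6.07% of all genes. *Fgf5* had passed the filter only by way of the knockout libraries, so its place in both counts carries no weight.

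*Otx2*, a homeobox factor that helps move cells from the naive towards the primed state, rose in *Ccnc* KO cells. In the *Ccnc* multiplex it was at 13.9 and 16.7 CPM in WT replicates 1 and 2 under DMSO and at 14.5 CPM in replicate 1 under ATRi. Clones D1, G2 and H5 had 23.7, 23.9 and 25.6 CPM under DMSO and 24.5, 23.7 and 26.6 CPM under ATRi. All 6 knockout libraries were above all WT libraries, also above WT replicate 2 under ATRi (20.7 CPM), and the 3 clones lay close together, with a mean of 24.7 ± 1.18 CPM (SD, n = 6 libraries of 3 clones). The change was 1.65-fold (log2 0.72, SE 0.081, adjusted p = 5.74e-05; 9.50e-05 with the replicate block). Without WT replicate 1 it was 0.55 on the log2 scale, with an adjusted p-value of 0.0536.

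*Otx2* in the *Cdk8* multiplex was at 13.8, 19.4 and 15.4 CPM in the WT libraries in the same order, at 21.1, 22.8 and 18.9 CPM in clones B9, C8 and H4 under DMSO, and at 19.9, 25.3 and 21.7 CPM under ATRi. Clone H4 under DMSO was below WT replicate 2 under DMSO, so the groups overlapped, and the difference missed the threshold (log2 fold change 0.41, SE 0.13, adjusted p = 0.0987). Each *Cdk8* KO clone was nevertheless above the mean of WT, by 0.35 to 0.60 on the log2 scale, compared with 0.68 to 0.81 in the *Ccnc* KO clones. The WT libraries themselves moved between sequencing runs: replicate 2 under DMSO read 16.7 CPM in the *Ccnc* and 19.4 CPM in the *Cdk8* multiplex, a log2 difference of 0.22 that was the largest of any member other than *Fgf5*. Without WT replicate 1 the *Cdk8* KO difference was 0.09 (adjusted p = 0.888). *Otx2* lies on chromosome 14 (48657677 to 48673819, minus strand) and its exons overlap in part with those of *Gm49154* on the same strand. RefSeq gives it 4 start sites, none with a GC box in its window, and the most upstream of them is shown (GRCm38.p6, minus strand, chr14:48667595-48667894) with TATAAA at -192 in capitals.
Otx2 promoter: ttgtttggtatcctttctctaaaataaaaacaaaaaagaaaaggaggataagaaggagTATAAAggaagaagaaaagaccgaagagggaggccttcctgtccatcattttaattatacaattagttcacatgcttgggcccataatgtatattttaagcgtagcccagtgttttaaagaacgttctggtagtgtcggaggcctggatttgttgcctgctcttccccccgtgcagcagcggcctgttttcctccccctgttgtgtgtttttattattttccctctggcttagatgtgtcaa

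*Fgf5*, a secreted growth factor used as a marker of formative and primed cells, had few counts everywhere. In the *Ccnc* multiplex WT replicates 1 and 2 had 2 and 2 counts under DMSO and replicate 1 had 5 under ATRi. Clones D1, G2 and H5 had 9, 12 and 13 counts under DMSO and 8, 12 and 7 under ATRi. Pooled over libraries and scaled to their sizes, *Ccnc* KO held 3.73 times the *Fgf5* of WT, with a 95% counting interval of 1.84 to 8.54 (exact Clopper-Pearson, counting error only). The fitted log2 fold change was 1.87 (SE 0.48, adjusted p = 0.0199; 0.0343 with the replicate block). The call was lost without WT replicate 1 (adjusted p = 0.181), WT replicate 2 (0.0709) or clone G2 (0.0878). *Fgf5* passed the filter only by way of the knockout libraries, so its p-values carry no weight as support for a rise.

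The WT libraries of the *Cdk8* multiplex had 1, 2 and 3 counts of *Fgf5*, clones B9, C8 and H4 had 14, 15 and 16 under DMSO and 8, 24 and 17 under ATRi. The pooled ratio was 6.83 (95% counting interval 3.02 to 19.1) and the fitted log2 fold change 2.74 (SE 0.53, adjusted p = 0.0220). With the replicate block the adjusted p-value was 0.164, and it was 0.445 without WT replicate 1, 0.0757 without WT replicate 2 and 0.102 without clone C8. In both multiplexes every knockout library was above every WT library, and the highest knockout level was 0.477 CPM. As the knockout libraries alone brought *Fgf5* through the filter here too, these values are descriptive. DESeq2 gave no adjusted p-value for *Fgf5* in the genotype and ATRi comparisons. *Fgf5* lies on chromosome 5 (98254184 to 98277030, plus strand). Its promoter (GRCm38.p6, plus strand, chr5:98253934-98254233) is shown as that of the gene called higher in both knockouts, with GGGCGG at -74 and TATAAA at 34, after the start site, in capitals. This window holds 29 CpG dinucleotides, where the median window holds 7. The other windows printed here hold 27 (*Sox2*), 30 (*Dnmt3b*) and 6 (*Otx2*).
Fgf5 promoter: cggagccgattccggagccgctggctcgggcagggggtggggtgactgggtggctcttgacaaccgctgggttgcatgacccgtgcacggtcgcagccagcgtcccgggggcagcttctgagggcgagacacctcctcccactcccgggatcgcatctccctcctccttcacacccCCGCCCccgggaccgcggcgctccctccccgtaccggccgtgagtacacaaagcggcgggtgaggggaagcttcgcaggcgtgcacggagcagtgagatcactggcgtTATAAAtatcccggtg

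*Dnmt3b* fell in *Ccnc* KO cells, while *Dnmt3a* did not pass the test in either knockout. In the *Ccnc* multiplex *Dnmt3b* was at 184 and 190 CPM in WT replicates 1 and 2 under DMSO and at 183 CPM in replicate 1 under ATRi. Clones D1, G2 and H5 had 149, 133 and 162 CPM under DMSO and 177, 146 and 154 CPM under ATRi. The WT libraries lay close together, WT replicate 2 under ATRi included (185 CPM), and all 6 knockout libraries were below them, with G2 lowest, and *Dnmt3b* fell by 0.28 on the log2 scale (SE 0.072, adjusted p = 0.0201; 0.0242 with the replicate block). Without clone G2 it fell by 0.21 (adjusted p = 0.0916), and without WT replicate 1 or 2 the adjusted p-value was 0.167 or 0.0796. *Dnmt3a* was at 245 to 269 CPM in WT and 227 to 288 CPM in *Ccnc* KO cells (log2 fold change 0.02, SE 0.062, adjusted p = 0.890).

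The *Cdk8* KO clones went different ways. *Dnmt3b* was at 181, 187 and 182 CPM in the WT libraries of the *Cdk8* multiplex in the same order. Clone B9 had 144 CPM under DMSO and 135 CPM under ATRi, C8 had 163 and 169 CPM, and H4 had 244 and 235 CPM. B9 and C8 were thus below every WT library and H4 above every WT library, in both treatments, which left the mean difference at -0.01 on the log2 scale (SE 0.19, adjusted p = 0.984). Without H4 it was -0.26 (SE 0.074, adjusted p = 0.0620). *Pou3f1* was likewise highest in H4: clone B9 had 6.88 and 7.84 CPM under DMSO and ATRi, C8 had 8.81 and 9.86 CPM, and H4 had 15.2 and 17.3 CPM, with WT libraries at 9.03, 10.4 and 10.1 CPM. B9 was below and H4 above every WT library, while C8 under ATRi lay among them. Its log2 fold change was 0.13 (SE 0.28, adjusted p = 0.834) with all clones and -0.26 (SE 0.13, adjusted p = 0.254) without H4. *Dnmt3a* was lower in H4, at 196 and 202 CPM, than in B9 (262 and 260 CPM), C8 (270 and 286 CPM) and the WT libraries (245 to 265 CPM). *Sall4* was also lowest in H4, at 160 CPM under DMSO and 194 CPM under ATRi. Clone H4 was singled out after its values had been seen, and no test was made of it alone. In the same clone the summed level of 10 trophectoderm markers was 329 and 339 CPM, against 71.2 to 112 CPM in B9 and C8 and 70.1 to 85.2 CPM in WT, and the sum of 24 naive pluripotency genes was lowest, at 2875 and 2958 CPM, against 3415 to 4098 CPM in B9 and C8 and 4492 to 4598 CPM in WT. The 10 fibroblast markers summed to 26.3 and 30.4 CPM in H4, against 12.1 to 13.6 CPM in B9 and C8 and 9.27 to 10.8 CPM in WT, and the 12 streak and mesoderm markers to 18.3 and 21.8 CPM, against 12.8 to 16.6 CPM and 12.1 to 13.2 CPM. Neuroectoderm markers summed to 155 and 161 CPM in H4, 118 to 141 CPM in B9 and C8 and 132 to 147 CPM in WT. Primitive endoderm markers summed to 993 and 1044 CPM in H4, lower than the 1050 to 1346 CPM of B9 and C8. Such sums do not tell how many markers of a list were higher in H4. Over all *Cdk8* KO clones the 9 trophectoderm markers tested had a median log2 fold change of 0.63, and 1 was called higher. The keratins *Krt8* and *Krt18* of that list were at 3.14 and 3.06 without being called. The part of these other genes in the H4 values was not tested.

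**Figure D3:**
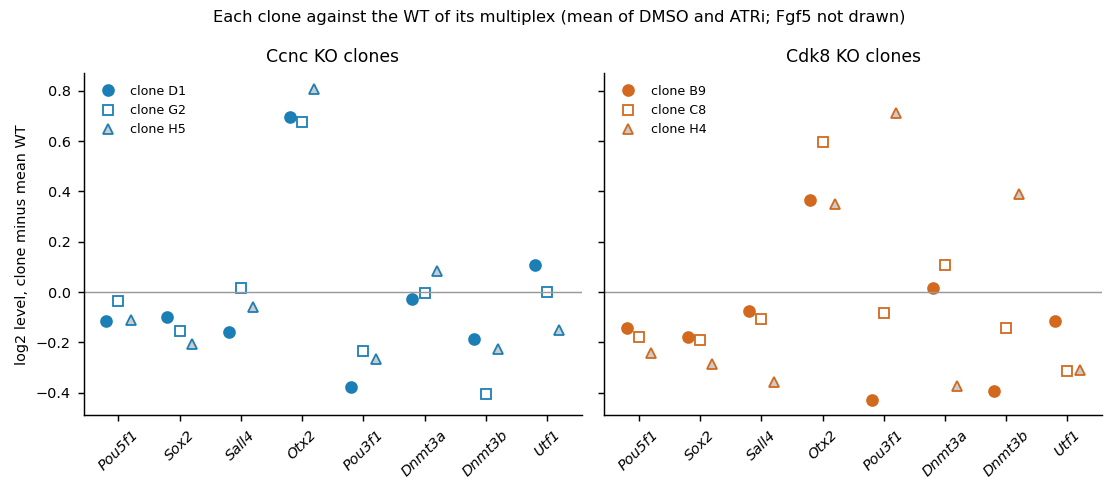
Log2 level of each clone minus WT (y axis; mean of DMSO and ATRi libraries, WT averaged the same way without replicate 2 under ATRi) for 8 genes, *Ccnc* KO clones on the left and *Cdk8* KO clones on the right. The *Ccnc* KO clones lie together for *Otx2* (0.68 to 0.81), and clone H4 is at 0.71 for *Pou3f1* and 0.39 for *Dnmt3b*, where B9 is at -0.43 and -0.39.

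*Pou3f1* (chromosome 4, 124656807 to 124660655, plus strand, 1 exon) was low in *Ccnc* KO cells under DMSO, with 6.70, 7.56 and 7.72 CPM in D1, G2 and H5 against 8.91 and 11.1 CPM in WT. Under ATRi the clones were at 9.18, 9.91 and 9.31 CPM and WT replicate 1 at 10.5 CPM. Each clone was below the WT libraries of the same treatment, and the log2 fold change of -0.32 (SE 0.10) narrowly missed the threshold (adjusted p = 0.0545; 0.0286 with WT replicate 2 under ATRi included). *Dnmt3b* lies on chromosome 2 (153649450 to 153687730, plus strand) and *Dnmt3a* on chromosome 12 (3806007 to 3914443, plus strand). Of the 50-base stretches of *Dnmt3b* transcripts, 11.5% also occur in *Dnmt3c*, with a longest shared run of 287 bases, so that reads there cannot be assigned by sequence. *Dnmt3c* itself had at most 11 counts in any library. The *Dnmt3b* promoter (GRCm38.p6, plus strand, chr2:153649199-153649498) is shown as that of the gene lowered in *Ccnc* KO cells, with GGGCGG at -60, -54, -12 and 41 in capitals.
Dnmt3b promoter: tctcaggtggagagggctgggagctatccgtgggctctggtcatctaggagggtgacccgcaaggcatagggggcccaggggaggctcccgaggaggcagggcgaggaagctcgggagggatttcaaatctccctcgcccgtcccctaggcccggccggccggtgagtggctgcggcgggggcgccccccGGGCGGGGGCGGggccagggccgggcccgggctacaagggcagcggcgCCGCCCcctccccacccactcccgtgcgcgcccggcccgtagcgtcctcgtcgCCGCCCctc

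The second question was whether ATR inhibition alters these genes irrespective of genotype. None of the 9 genes was called in either multiplex, where 1.11% of all genes were called in the *Ccnc* and 0.0855% in the *Cdk8* multiplex. At an unadjusted p under 0.05 edgeR counted 3 and 2 of the 9 genes, beside 16.2% and 11.5% of all genes, and DESeq2 called 1 in each multiplex, beside 3.5% and 2.02%. *Sall4*, a zinc finger partner of OCT4, came closest. Under DMSO it was at 176, 195 and 205 CPM in D1, G2 and H5 and under ATRi at 230, 265 and 227 CPM, with 218 and 238 CPM in WT replicate 1. With *Cdk8* KO cells it went from 211 to 217 CPM in B9, from 185 to 238 CPM in C8, from 160 to 194 CPM in H4 and from 215 to 241 CPM in WT replicate 1. *Sall4* was higher under ATRi in 6 of 6 clones, by 0.04 to 0.44 on the log2 scale, and in both WT replicates in both runs. These runs share the same WT libraries, and the change of WT replicate 2 uses its ATRi library, which was left out of the tests. The log2 fold changes were 0.28 (SE 0.064, adjusted p = 0.0523) and 0.21 (SE 0.082, adjusted p = 0.369). With each clone compared with itself in a replicate block, *Sall4* passed in both multiplexes (adjusted p = 0.0409 and 0.00683), where that fit called 2.43% and 11.3% of all genes.

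*Sox2* was likewise higher under ATRi in 6 of 6 clones, by 0.02 to 0.22 on the log2 scale. Its log2 fold change was 0.08 (SE 0.048, adjusted p = 0.455) in the *Ccnc* and 0.17 (SE 0.043, adjusted p = 0.182) in the *Cdk8* multiplex, and with the block the adjusted p-values were 0.395 and 0.00224. *Pou3f1* was higher in 6 of 6 clones as well, by 0.16 to 0.45, with log2 fold changes of 0.27 (SE 0.099, adjusted p = 0.187) and 0.15 (SE 0.27, adjusted p = 0.900) and blocked adjusted p-values of 0.0627 and 0.0842. The remaining genes showed no such run of clones, apart from *Fgf5*, which was lower in 6 of 6 clones at 7 to 24 counts a library (log2 fold changes -0.09 and -0.20, adjusted p = 0.932 and 0.908). The share of all genes with such a run was not counted, so the runs of *Sall4*, *Sox2*, *Pou3f1* and *Fgf5* are only descriptive. *Pou5f1*, *Otx2*, *Dnmt3a*, *Dnmt3b* and *Utf1* had log2 fold changes between -0.11 and 0.13, with adjusted p-values from 0.295 to 0.997.

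**Figure D4:**
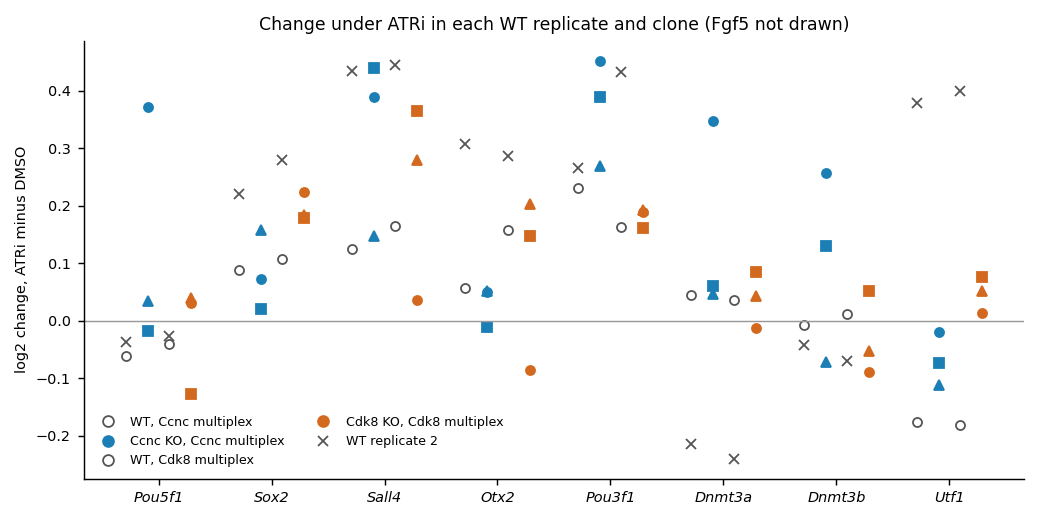
Log2 change under ATRi (y axis, ATRi minus DMSO of the same clone or replicate) for 8 genes, WT in grey and knockout clones in colour, with crosses for WT replicate 2. *Sall4*, *Sox2* and *Pou3f1* lie above 0 in every clone, while *Utf1* in WT is at -0.18 for replicate 1 and 0.38 to 0.40 for replicate 2.

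The third question was whether the response to ATRi differs between knockout and WT cells, tested with an interaction term between genotype and treatment. For neither knockout was any of the 9 genes called by edgeR or DESeq2, and in the fits without the replicate block none had an unadjusted p under 0.05. With the block in edgeR, *Utf1* in the *Cdk8* multiplex did, without being called. Over all genes edgeR also called 0% in both multiplexes, with 395 and 255 genes (2.13% and 1.36%) at an unadjusted p under 0.05. Leaving aside *Fgf5*, the interactions lay between -0.06 and 0.28 on the log2 scale, and their SEs, 0.096 to 0.62, limit what could be seen with 1 WT library under ATRi. WT replicate 2 under ATRi, the library left out, differed from replicate 1 in several of the genes. In the *Ccnc* multiplex *Utf1* was at 855 CPM in it and 542 CPM in replicate 1, *Otx2* at 20.7 and 14.5 CPM, *Sall4* at 277 and 238 CPM, *Sox2* at 519 and 460 CPM and *Dnmt3a* at 211 and 269 CPM. The *Utf1* value was the highest of all libraries in either multiplex, and the same library read 842 CPM in the *Cdk8* multiplex. With this library included, *Utf1* was called lower in *Cdk8* KO cells (log2 fold change -0.42, adjusted p = 0.0419).

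To place the 9 genes among others of the same network, lists were counted in the same fits. The lists too were chosen with earlier results of these data known, so their counts are descriptive. Of 24 naive pluripotency genes, 1 was called higher and 14 lower in *Ccnc* KO cells and 0 higher and 7 lower in *Cdk8* KO cells, with medians of -0.28 and -0.38 on the log2 scale. *Manba* (-0.68 and -0.66), *Socs3* (-0.50 and -0.45) and *Fbxo15* (-0.42 and -0.48) had the smallest p-values and were called in both knockouts. Of 24 partners of the core network, 0 were higher and 9 lower in *Ccnc* KO and 0 higher and 5 lower in *Cdk8* KO cells (medians -0.12 and -0.16). Among them *Jarid2*, a subunit of Polycomb complex PRC2, and *Tdgf1*, a Nodal co-receptor, fell in both (-0.42 and -0.34; -0.32 and -0.29), and *Mycn*, a MYC family factor, was called in *Ccnc* KO cells (-0.80, beside -0.44 with an adjusted p of 0.208 in *Cdk8* KO).

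Genes of the formative and primed state did not move as a block. Of 25 tested, 3 were higher and 6 lower in *Ccnc* KO cells and 1 higher and 3 lower in *Cdk8* KO cells, with medians of -0.10 and 0.04. The shares of all genes were 7.01% higher and 5.28% lower in *Ccnc* KO, and 2.28% and 2.03% in *Cdk8* KO cells. *Dnmt3l*, the cofactor of DNMT3A and DNMT3B, fell by 0.71 and 0.56 on the log2 scale (adjusted p = 9.60e-07 and 0.00252) and *Zic2*, a zinc finger factor, fell by 0.93 and 0.90, while *Sall2*, a relative of *Sall4*, rose by 0.62 and 0.86. Of 15 genes of the DNA methylation machinery outside the 9, *Dnmt3l* included, 1 was higher and 4 lower in *Ccnc* KO and 0 higher and 2 lower in *Cdk8* KO cells (medians -0.13 and -0.06). *Mbd3*, which binds at methylated and unmethylated DNA in the NuRD complex, fell in both (-0.21 and -0.23), and *Tet2*, which oxidizes methylcytosine, was called in *Ccnc* KO cells (-0.48, beside -0.54 with an adjusted p of 0.141).

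Markers of primitive endoderm, the other lineage of the inner cell mass, moved with genotype. Of 12 markers, 10 were called higher in *Ccnc* KO and all 12 in *Cdk8* KO cells (median log2 fold changes 1.15 and 1.75), among them *Sparc*, *Col4a1* and *Col4a2*, which encode matrix proteins. The lists were chosen with earlier results of these data known, so the shares of all genes are no independent background for these counts. The counts of all lists rest on the fit without the replicate block and were not repeated with it or with libraries left out. Over all genes in *Cdk8* KO cells the block gave 237 calls in place of 806. The summed level of the 12 markers was 438 to 490 CPM in WT and 757 to 963 CPM in *Ccnc* KO cells, and 442 to 490 CPM in WT and 993 to 1346 CPM in *Cdk8* KO cells, with no marker at 0. The 10 embryonic stem cell markers, *Pou5f1* among them, summed to 4819 to 5326 CPM in WT against 4250 to 4771 CPM in *Ccnc* KO, and to 4708 to 5235 CPM against 3588 to 4540 CPM in *Cdk8* KO cells. In bulk RNA, fewer cells of a type and less RNA per cell cannot be told apart, and the part of these markers in the values of *Sox2*, *Dnmt3b* and the other genes was not tested. Of the remaining lists, 4 of 10 trophectoderm markers were called higher in *Ccnc* KO and 1 of 9 in *Cdk8* KO cells, 2 of 6 and 1 of 7 neuroectoderm markers were called lower, 1 of 11 and 0 of 12 streak and mesoderm markers were called higher, and none of the fibroblast markers tested was called, with *Lum* and *Postn* at 0 in every WT library used. Beside these stand 7.01% of all genes called higher and 5.28% lower in *Ccnc* KO, and 2.28% and 2.03% in *Cdk8* KO cells.

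**Figure D5:**
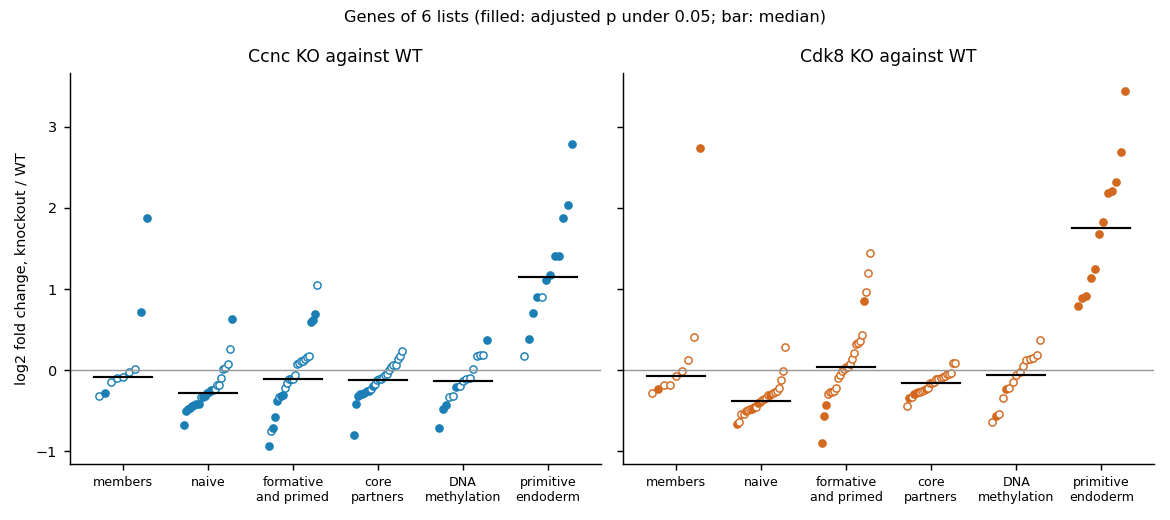
Log2 fold change against WT (y axis) of the 9 genes and of the tested genes of 5 lists, sorted within each list, *Ccnc* KO on the left and *Cdk8* KO on the right, filled where the adjusted p-value was under 0.05 and with a bar at each median. The naive genes have medians of -0.28 and -0.38, the 9 genes of -0.08 and -0.07, and the primitive endoderm markers of 1.15 and 1.75.

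The genes whose levels followed each of the 9 most closely were sought by the smaller of the Pearson correlations of log2 CPM over the 9 libraries used in each multiplex, among 18130 genes. The libraries include the same WT libraries in both multiplexes and differ by genotype, so the values are descriptive. For *Otx2* these were *AA986860* (r = 0.95 and 0.92) and *Fhdc1* (0.92 and 0.92), for *Dnmt3b* *Sash1* (0.95 and 0.97) and *Col18a1* (0.94 and 0.94), and for *Pou3f1* *Rcan1* (0.92 and 0.95) and *Gm19637* (0.91 and 0.91). *Fgf5* was followed by *Pth1r* (0.94 and 0.95) and *Cyren* (0.95 and 0.94), *Sox2* by *Gsx1* (0.91 and 0.93) and *Sox8* (0.89 and 0.93), and *Pou5f1* by *Aamp* (0.99 and 0.93) and *Atg101* (0.92 and 0.94). The closest to *Sall4* were *Znfx1* (0.91 and 0.90) and *Sbno1* (0.91 and 0.89), to *Dnmt3a* *Rcc1* (0.88 and 0.90) and *Gcat* (0.89 and 0.88), and to *Utf1* *Sstr2* (0.93 and 0.91) and *Sik1* (0.91 and 0.96).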

How the data were processed

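RNA-seq was performed on 20 libraries (40 lane samples) of WT, *Ccnc* KO and *Cdk8* KO mESCs. The authors trimmed the single-end reads with Trimmomatic 0.38, aligned them to GRCm38.p6 with HISAT2 2.1.0 and counted them per gene and strand with featureCounts 2.0.1, leaving out duplicate reads, and deposited the raw counts per lane for 55536 genes. Reads shared by near-identical genes cannot be restored from these counts. The deposited rlog tables were not used. No column was left unmapped.

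Here, the 2 lanes of each library were summed, and coordinates and symbols were taken from GENCODE M21. Each multiplex was tested with edgeR 4.0.16 in R 4.3.3 (quasi-likelihood test, TMM normalization, filterByExpr by genotype and treatment, Benjamini-Hochberg adjustment over all genes tested, threshold 0.05, two-sided), with treatment or genotype as covariate and with their interaction. The SE of an edgeR fit is the absolute log2 fold change divided by the square root of the quasi-likelihood F statistic. CPM used TMM-scaled library sizes, and a prior count of 2 was used for log2 levels. The scripts were tested on simulated data. Alternatives were DESeq2 1.42.0, its size factors in edgeR, a filter of at least 1 count, DMSO libraries alone, WT replicate 2 under ATRi included, each clone or WT replicate left out, and the clone as a replicate block (limma 3.58.1, voom with duplicateCorrelation, for genotype; a fixed effect in edgeR otherwise). The pairing comes from the shared cell line; the deviations of a clone's 2 libraries correlated across genes with r = 0.03 to 0.68. Nothing used here says whether WT replicates were separate lines; p-values measure the spread between these libraries.

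The members and lists were chosen with earlier results of these data known. Named were all 9 members, the targeted genes, at most the 3 genes of each list with the smallest p in either knockout, and the 2 genes most like each member; other names and clone H4 were chosen after their values were seen. Promoters are RefSeq sequences of GRCm38.p6.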

Additional observations from a re-analysis of the deposited data

Results flagged for a closer look

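*Fgf5* changed in opposite directions under ATRi in the knockout clones and in WT. In the *Ccnc* multiplex the log2 change was -0.21 in D1, -0.19 in G2 and -0.54 in H5, against 0.74 in WT replicate 1 and 0.68 in WT replicate 2. In the *Cdk8* multiplex it was -0.66 in B9, -0.36 in C8 and -0.14 in H4, against 0.86 in WT replicate 1 and 0.39 in WT replicate 2. The WT libraries, the same in both multiplexes, had 1 to 5 counts of *Fgf5*. The interaction test without WT replicate 2 under ATRi did not call it (adjusted p = 1.00 in both multiplexes). *Utf1* was lower under ATRi in all *Ccnc* KO clones (-0.0187 in D1, -0.0731 in G2 and -0.11 in H5) and higher in all *Cdk8* KO clones (0.0129 in B9, 0.0768 in C8 and 0.0516 in H4). This difference between the knockouts was not tested.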

How the results depend on the processing

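Of the members' log2 fold changes, no alternative reversed the direction of a call. The counts of members called are to be read beside those of all genes. In *Ccnc* KO cells 2284 of 18577 genes were called, 1878 of 17774 with WT replicate 2 under ATRi and 635 of 17067 with DMSO libraries alone. In *Cdk8* KO cells it was 806 of 18721 genes, 1799 of 18720 with DESeq2 and 237 of 18721 with the replicate block. The number of members called in *Ccnc* KO cells, 3 in the report, was 5 with WT replicate 2 under ATRi, 1 with DMSO libraries alone and 0 to 4 with a clone or WT replicate left out, 0 without WT replicate 1, 1 without WT replicate 2 and 1 without G2. In *Cdk8* KO cells, 2 in the report, it was 4 with DESeq2, 0 with the replicate block, 0 with DMSO libraries alone and 0 to 3 on leaving 1 out, 0 without WT replicate 1, WT replicate 2 or C8. For ATRi, 0 in the report, it was 1 with DESeq2, its size factors, the filter of at least 1 count or the replicate block in the *Ccnc* multiplex (*Sall4*), and 1 with DESeq2 and 2 with the replicate block in the *Cdk8* multiplex, and 0 throughout on leaving 1 out. For the interaction it was 0 under every alternative that could be fitted; without WT replicate 1 none could, as no WT library under ATRi remained. The block changed no other member's call. *Fgf5*, called in both knockouts in the report, is part of the counts of members called there, and its place in them carries no weight.

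Over all genes, 2284 were called in *Ccnc* KO cells, 635 with DMSO libraries alone and 289 to 2640 on leaving 1 out (289 without WT replicate 1, 1387 without G2). In *Cdk8* KO cells 806 were called, 1799 with DESeq2, 237 with the replicate block, 5 with DMSO libraries alone and 1 to 1512 on leaving 1 out (1 without WT replicate 1, 247 without C8, 263 without WT replicate 2, 1326 without H4, 1512 without B9). For ATRi in the *Ccnc* multiplex 206 became 41 with WT replicate 2 under ATRi, 651 with DESeq2, 845 with the filter of at least 1 count, 451 with the block and 21 to 250 on leaving 1 out (21 without WT replicate 1, 25 without G2, 34 without H5). In the *Cdk8* multiplex 16 became 378 with DESeq2, 41 with that filter, 2107 with the block and 0 to 29 on leaving 1 out (0 without WT replicate 1, 1 without C8, 4 without B9, 7 without WT replicate 2, 29 without H4). The interaction, 0 in the report, gave 20 genes with that filter in the *Ccnc* and 4 with the block in the *Cdk8* multiplex. The cause of these shifts was not tested. *Fgf5*, with 1 to 24 counts a library, is the member most limited by depth.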
